A study of Lactuca sativa with 12 samples.

Results

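The transcripts followed here are those of a Rubisco small chain gene, Lsat_1_v5_gn_4_153980.1 (written Ls4g153980.1), and a light-harvesting gene described as chlorophyll a-b binding protein 16, Lsat_1_v5_gn_2_102941.1 (written Ls2g102941.1). They are 2 of the 23933 genes in the expression table. Both were selected on their measured CPM in these libraries, as genes lower in the cold than at 0 h and by the time-point of the lowest level, so that their levels and fold changes are given as a description with no test. RNA-seq was conducted on above-ground tissue of lettuce (Lactuca sativa) cv. Salinas at 4 time-points with 3 libraries each, 12 in all. The 0 h plants were warm-grown at 20 °C with 350 to 400 µmol m−2 s−1 of light, whereas plants that were 18 days old at the start were held at 4 °C and about 100 µmol m−2 s−1 for 4 h, 24 h or 7 d, and the photoperiod was 16 h throughout. Low temperature and lower light, and at 7 d the older age, came together and cannot be told apart. The question was how the transcriptome changes during cold acclimation. How many plants entered a library and the time of day of harvest are not given in the sources used here, and if the replicates were not separate plants the p-values measure only the spread between libraries.

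Rubisco is the chloroplast enzyme that fixes CO2 in the Calvin-Benson cycle. Its large subunit is encoded in the chloroplast genome, and its small subunit, the small chain, is encoded by a family of nuclear genes and imported into the chloroplast. Chlorophyll a-b binding proteins hold chlorophyll in the thylakoid membrane and pass the absorbed light energy to the photosystems, and they too are products of a nuclear gene family. Transcripts of both families are among the most abundant in green leaves, and in Arabidopsis they respond to light.

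Libraries held 18609189 to 25952306 reads over the genes of the table. The 0 h replicate 3 stood somewhat apart, with correlations across genes of 0.977 and 0.979 with the other 0 h libraries, against 0.990 to 0.995 for every other pair of replicates. Levels are in CPM, counts per 1000000 reads of the library on the genes of the table. They are not divided by transcript length, so that ranks and shares below are of reads. Reads outside these genes are in no share, and the library below means the reads on these genes. Gene descriptions and cold-regulated (COR) status came from the study's supplementary gene list, of which 1997 genes were used, 1619 of them with a description. The study chose that list on these same libraries, and it was in hand in full only for linkage groups 0 to 3 and in part for 4. It holds only genes that the study called cold-regulated, so a call at some time-point was nearly fixed for each. Counts of described genes below are therefore not independent evidence of a direction. Genes of the same families that the study did not call are missing on every linkage group. Those on other linkage groups are not counted either. Small chain genes can be near-identical in sequence, and reads shared between copies may have been split or lost in counting, so that the levels of single copies are uncertain.

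The Rubisco small chain gene was at its highest in warm-grown plants, was little lower at 4 h and 24 h, and was 5.76-fold lower at 7 d. In the 0 h libraries Ls4g153980.1 was at 14540, 14403 and 13926 CPM. At 4 h it was at 13616, 13188 and 13144 CPM, and at 24 h at 11166, 11235 and 11242 CPM. The 7 d libraries held 2554, 2483 and 2399 CPM, which lay far below every other library, and no library of one time-point overlapped those of the next. Mean levels were 14289.9 ± 322 CPM at 0 h, 13316 ± 261 at 4 h, 11214 ± 42 after 24 h and 2479 ± 77.5 after 7 d (SD, n = 3). Relative to 0 h, 93.2% of the level was left at 4 h, 78.5% after 24 h and 17.3% after 7 d. The log2 fold changes on the log2(CPM + 1) scale were −0.10, −0.35 and −2.53, each with a standard error of 0.08. Standard errors here and below come from the limma fit and draw on the spread of all genes. The residual SD of this gene alone was 0.031 on the same scale.

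The light-harvesting gene was lower in steps of similar size in CPM, which are growing steps on the log2 scale (−0.39, −0.70 and −0.99), and was already below 50% of its warm level at 24 h. Ls2g102941.1 was at 1481, 1449 and 1620.0 CPM in the 0 h libraries. At 4 h it was at 1148, 1188 and 1121 CPM, and at 24 h at 604, 711 and 837 CPM. The 7 d libraries held 329.5, 369 and 377 CPM. Again no library overlapped those of the next time-point, although the 24 h libraries were widely spread. Mean levels were 1517 ± 91.1 CPM at 0 h, 1152 ± 33.9 at 4 h, 717 ± 116 after 24 h and 358 ± 25.4 after 7 d (SD, n = 3). Of the 0 h level 76.0% was left at 4 h, 47.3% after 24 h and 23.6% after 7 d, the last being 4.23-fold lower. The log2 fold changes were −0.39, −1.09 and −2.08, each with a standard error of 0.12. Without 0 h replicate 3, the library that stood apart, they were −0.35, −1.04 and −2.03, and those of the small chain gene −0.12, −0.37 and −2.55.

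**Figure D1:**
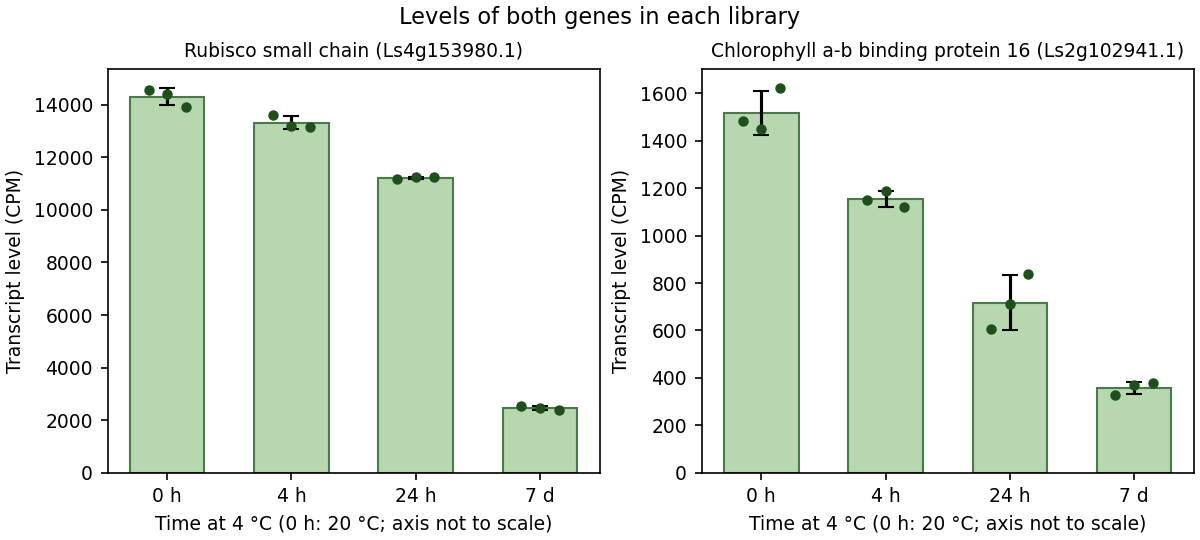
Transcript levels (CPM, linear axes from 0) of the Rubisco small chain gene and of chlorophyll a-b binding protein 16 by time-point; points are single libraries, bars are means and error bars are SD (n = 3). The small chain gene had at least 11166 CPM in every library until 24 h and was between 2399 and 2554 CPM at 7 d, whereas the light-harvesting gene was lower at each time-point, from 1517 to 358 CPM.

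The timing of the loss differed between the genes as measured. For the small chain gene, the step from 0 h to 4 h made up 8.24% of the whole difference between 0 h and 7 d, the step to 24 h 17.8% and the step from 24 h to 7 d 74.0%. For the light-harvesting gene the corresponding shares were 31.5%, 37.6% and 31.0%. The gaps between the nearest libraries of adjacent time-points were 310.1, 1902 and 8612 CPM for the small chain gene and 260.5, 284 and 227 CPM for the light-harvesting gene. A lower level with no overlap was common among the 22306 genes tested, at 13.2% of genes from 0 h to 4 h, 27.2% from 4 h to 24 h and 18.3% from 24 h to 7 d. Genes lower without overlap at all 3 steps made up 0.368%, or 82 genes, both genes included. Since these steps chose the genes, nothing is read from this share.

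Spread between libraries was smaller for the small chain gene. Its coefficient of variation was 2.25% at 0 h, 1.96% at 4 h, 0.374% after 24 h and 3.13% after 7 d, against 6.0%, 2.94%, 16.2% and 7.09% for the light-harvesting gene. At 24 h, replicate 3 was the highest library for the light-harvesting gene and for all 4 other described small chain genes, while the 3 libraries of Ls4g153980.1 lay within 11166 to 11242 CPM. Counting error was small at these depths, since the small chain gene had 45535 to 292575 reads in a library and the light-harvesting gene 6165 to 34035.

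As shares of the reads on the genes of the table, the small chain gene alone took 1.43% at 0 h, 1.33% at 4 h, 1.12% after 24 h and 0.248% after 7 d. By mean level it ranked first among all genes at 0 h and 4 h, second at 24 h and 17th at 7 d. The light-harvesting gene took 0.152%, 0.115%, 0.0717% and 0.0358%, with ranks of 78, 94, 151 and 398. Because CPM is a share, the levels also depend on the other abundant transcripts. The 100 genes highest at 0 h took 31.3% of reads at 0 h, 28.2% at 4 h, 24.4% after 24 h and 18.9% after 7 d. Relative to the reads of all genes outside these 100, the log2 changes were −0.17, −0.49 and −2.77 for the small chain gene. For the light-harvesting gene they were −0.46, −1.23 and −2.32. Both sets are lower than on the whole library at every time-point. That follows from the falling share of the 100 genes, which were picked at 0 h and include both genes. In bulk tissue, fewer cells of a type and less RNA per cell cannot be told apart. Summed over 2 described phloem genes, levels ran from 73.1 to 114 CPM at 0 h, 72.0 to 77.3 at 4 h, 59.4 to 79.1 at 24 h and 40.4 to 54.4 CPM at 7 d. Over 4 described epidermis and cuticle genes they ran from 39.5 to 65.3 CPM at 0 h, 39.5 to 47.3 at 4 h, 25.2 to 29.1 at 24 h and 37.5 to 40.9 CPM at 7 d, so that the 24 h libraries lay below all others. These marker genes come from the list of cold-regulated genes, so they were selected for changing and cannot gauge the share of a cell type. The part of these markers in the result was not tested. The lists for root endodermis and shoot meristem held 0 described genes.

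The balance of the genes within a library turned over during the treatment. Per 100 CPM of the small chain gene, the 0 h libraries held 10.2, 10.1 and 11.6 CPM of the light-harvesting gene. The 4 h libraries held 8.43, 9.01 and 8.53, and the 24 h libraries 5.41, 6.33 and 7.44. At 7 d the ratio was 12.9, 14.9 and 15.7, above every other library, whereas all 4 h and 24 h libraries lay below all 0 h libraries. The means were 10.6 ± 0.875, 8.66 ± 0.310, 6.39 ± 1.02 and 14.5 ± 1.44 (SD, n = 3), which are log2 changes of −0.29, −0.74 and 0.45 against 0 h. A ratio within a library does not depend on how libraries are scaled. It is made of the levels that chose both genes and is given without a test.

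**Figure D2:**
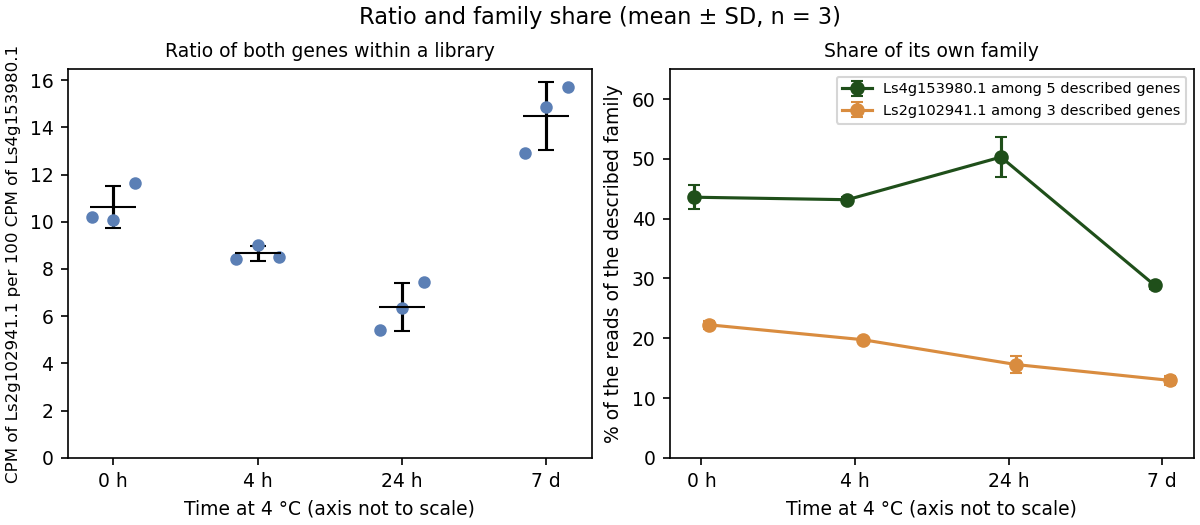
Left, CPM of the light-harvesting gene per 100 CPM of the small chain gene (points, libraries; lines, mean ± SD, n = 3); right, each gene's share of the reads of its described family (mean ± SD, n = 3). The ratio went from 10.6 at 0 h to 6.39 at 24 h and 14.5 at 7 d. The small chain gene's share of its described family was 50.3% at 24 h and 28.9% at 7 d. A described family holds only genes that the study called cold-regulated.

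The other described small chain genes, all on linkage group 2, fell at 7 d. Calls required a change of 2-fold or more (1 on the log2 scale) with a Benjamini-Hochberg adjusted p up to 0.01 in limma. By this rule 0.592% of all genes were lower at 4 h, 3.55% after 24 h and 3.41% after 7 d. Of the 4 other genes, 0 were called at 4 h, 1 after 24 h and 4 after 7 d. The study had called each of them cold-regulated on these libraries, also with a 2-fold and an adjusted p cut-off. A call at some time-point was thus nearly fixed, and nothing is read from these counts beside the share of all genes. At 4 h, none had an unadjusted p under 0.05 in limma and none was called by edgeR or DESeq2, which called 1.26% and 1.48% of all genes lower. Their median log2 fold change was −0.02 at 4 h, −0.51 after 24 h and −1.46 after 7 d, beside 0.03, 0.04 and 0.15 for all genes tested.

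Ls2g79581.1 fell earliest among them. It was at 6079, 6093 and 6689.8 CPM at 0 h and at 5890.2, 6122 and 6228 CPM over the 4 h libraries. At 24 h it was at 1826, 1798 and 2713 CPM, and at 7 d at 1469, 1527 and 1402 CPM. All 24 h and 7 d libraries thus lay below all earlier ones, with log2 fold changes of −1.60 at 24 h (SE 0.14, limma adjusted p = 2.17e-06) and −2.10 at 7 d (SE 0.14, limma adjusted p = 3.55e-07).

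Ls2g79600.1, second to Ls4g153980.1 in reads among the described genes of the family until 24 h and above it at 7 d, was at 7642 ± 445 CPM at 0 h, 6855 ± 196 at 4 h, 5561 ± 631 after 24 h and 2726 ± 97.0 after 7 d (SD, n = 3). It fell with log2 fold changes of −1.49 against 0 h (limma adjusted p = 3.93e-07) and of −1.02 from 24 h to 7 d (limma adjusted p = 1.97e-05). Ls2g79541.1 was at 1735 ± 112 CPM at 0 h, 1522 ± 150.1 at 24 h and 640.4 ± 26.8 at 7 d, with a log2 fold change of −1.44 at 7 d (limma adjusted p = 4.54e-07) and of −1.24 from 24 h to 7 d (limma adjusted p = 4.17e-06). Ls2g79501.1 fell the least, from 2849.5 ± 252 to 1273 ± 70.2 CPM, with a log2 fold change of −1.16 (limma adjusted p = 5.99e-06). From 24 h to 7 d, 2 of the 4 were called lower, where 2.52% of all genes were. Of all 5 genes, Ls4g153980.1 had the lowest level relative to 0 h at 7 d, by which it was chosen, and Ls2g79581.1 came next with 23.3% left against 17.3%.

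Summed over the 5 described genes, small chain reads took 3.28% ± 0.0840 of the library at 0 h, 3.08% ± 0.0775 at 4 h, 2.24% ± 0.158 after 24 h and 0.858% ± 0.0300 after 7 d (SD, n = 3). Ls4g153980.1 contributed 43.6% of this sum at 0 h, 43.2% at 4 h, 50.3% after 24 h and 28.9% after 7 d. At 7 d it held fewer reads than Ls2g79600.1, whereas it held more than any other described small chain gene at the earlier time-points. Small chain genes that the study did not call cold-regulated cannot enter this sum, so it is not the course of the whole family.

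The other described chlorophyll a-b binding protein genes were 2, and both fell at 7 d, where limma called 3.41% of all genes lower. Chlorophyll a-b binding protein 21, Ls1g95341.1, was at 2308, 2112 and 2513 CPM at 0 h and at 1062, 942 and 1045 CPM at 7 d, a log2 fold change of −1.18 (limma adjusted p = 1.66e-06). Its level at 24 h was 2039.8 CPM, with a log2 fold change of −0.18 (limma adjusted p = 0.165), and its log2 fold change from 24 h to 7 d was −1.0 (limma adjusted p = 1.75e-05). Chlorophyll a-b binding protein P4, Ls4g109340.2, was at 3019, 2741 and 3226 CPM at 0 h and at 1301, 1386 and 1487 CPM at 7 d, a log2 fold change of −1.10 (limma adjusted p = 5.89e-06). At 24 h it was at 1824 CPM, with a log2 fold change of −0.72 that did not reach the 2-fold threshold. At 4 h and at 24 h, 0 of the 2 were called in limma, edgeR or DESeq2, and 1 of them had an unadjusted limma p under 0.05 in each comparison. At 24 h edgeR called 6.26% and DESeq2 6.72% of all genes lower. The 3 genes together took 0.682% of reads at 0 h, 0.583% at 4 h, 0.458% after 24 h and 0.277% after 7 d. Ls2g102941.1 made up 22.3%, 19.8%, 15.6% and 13.0% of this sum. The sum again covers only genes that the study called cold-regulated.

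**Figure D3:**
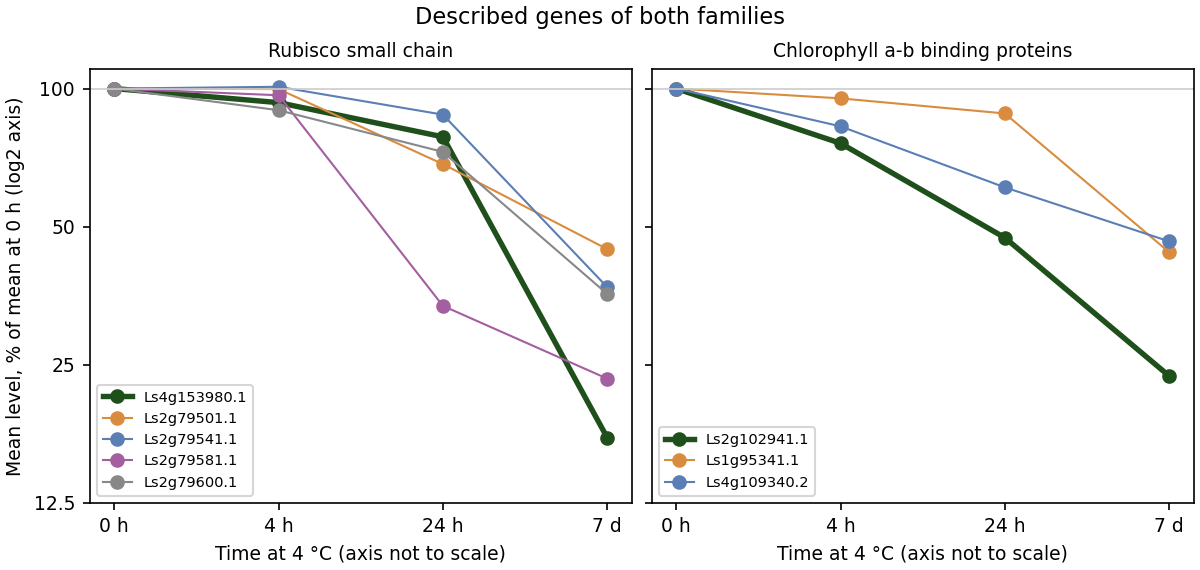
Mean level of each described Rubisco small chain gene and chlorophyll a-b binding protein gene as a percentage of its mean at 0 h (log2 axis; 3 libraries per point); thick lines are Ls4g153980.1 and Ls2g102941.1. At 7 d the small chain genes had between 17.3% and 44.7% of their 0 h level, and Ls2g79581.1 was at 33.6% at 24 h.

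Genes that act on Rubisco rather than forming it did not move as one group. Rubisco activase 2, Ls2g118741.2, which frees the active site of inhibitory sugar phosphates, was at 10200, 10566 and 11944 CPM at 0 h, at 8126 ± 792 CPM (SD, n = 3) at 24 h and at 2237, 2458 and 2298 CPM at 7 d. At 7 d it had fallen, with a log2 fold change of −2.22 (limma adjusted p = 1.75e-08). The alpha subunit of the RuBisCO large subunit-binding protein, Ls1g63701.3, a chloroplast chaperonin that folds the large subunit, rose from 777, 756 and 662 CPM to 1726, 1650.4 and 1664 CPM (log2 fold change 1.2, limma adjusted p = 1.56e-06). Chaperonin 60 subunit alpha 2, Ls2g63681.1, a related chaperonin subunit, rose from a mean of 9.17 to 23.0 CPM (log2 fold change 1.27, limma adjusted p = 5.85e-05). The fourth gene of this list, Chaperonin-like RBCX protein 1, Ls1g129560.2, an assembly chaperone of Rubisco, lay outside the naming rule and is given after its values were seen. It rose from 3.38 to 11.7 CPM (log2 fold change 1.58, limma adjusted p = 4.13e-05). At 7 d, 3 of the 4 thus rose, where 6.81% of all genes did, and 1 fell.

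Among photosystem genes, photosystem I reaction center subunit VI, Ls1g35241.1, fell from 809.5 to 213 CPM at 7 d (log2 fold change −1.92, limma adjusted p = 3.06e-07). Subunit N, Ls1g10061.1, fell with a log2 fold change of −1.27 (limma adjusted p = 5.61e-06), whereas subunit IV A, Ls2g15600.3, had a log2 fold change of −0.94, short of the 2-fold threshold. Protein PHOTOSYSTEM I ASSEMBLY 2, Ls1g68280.2, a gene outside the naming rule and given after its values were seen, rose by 1.24 (limma adjusted p = 1.08e-05). In photosystem II, oxygen-evolving enhancer protein 2, Ls3g35220.2, a subunit at the water-splitting site, fell from 4651 to 1809 CPM (log2 fold change −1.35, limma adjusted p = 1.04e-06). The log2 fold changes at 7 d of oxygen-evolving enhancer protein 3-2, Ls1g123241.1, and of Photosystem II repair protein PSB27-H1, Ls3g39480.1, were −0.92 and −0.90. With TMM scaling, which lowers all values at 7 d, these and subunit IV A passed the threshold too. PSB27-H1 was called lower at 24 h, with a log2 fold change of −1.06 (limma adjusted p = 9.53e-06), but not without 24 h replicate 1, where it was −0.95.

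Other genes linked to photosynthesis by their descriptions included some that rose at 4 h, when no described photosynthesis gene was called lower. Transketolase-2, Ls3g132321.3, an enzyme of the Calvin-Benson cycle, rose from 53.2 to 193.5 CPM at 4 h (log2 fold change 1.85, limma adjusted p = 6.06e-05). Ferredoxin-3, Ls1g59281.3, a small electron carrier, rose from 64.8 to 213 CPM (log2 fold change 1.69, limma adjusted p = 0.000258). These were 2 of 23 described photosynthesis genes, where 5.15% of all genes were called higher. That count joins all lists given here except clock and light regulators, so it includes Rubisco assembly and chlorophyll synthesis and breakdown. Genes entered these lists by words in their descriptions, so a place in a list does not show a part in photosynthesis. Divinyl chlorophyllide a 8-vinyl-reductase, Ls3g24840.1, of chlorophyll synthesis, fell from 149.6 to 63.4 CPM at 7 d (log2 fold change −1.22, limma adjusted p = 1.15e-06). Protein STAY-GREEN 1, Ls3g4460.1, which takes part in chlorophyll breakdown, rose from 13.0 to 30.2 CPM at 24 h (log2 fold change 1.15, limma adjusted p = 6.12e-06). The chloroplastic carbonic anhydrase gene Ls3g48361.1 and geranylgeranyl diphosphate reductase, Ls4g108620.2, were not called against 0 h in limma, the latter with at most 0.904 CPM in a library. Ls3g48361.1 was called lower from 4 h to 24 h (log2 fold change −1.17, limma adjusted p = 0.000106), where 3.93% of all genes were. Its log2 fold changes against 0 h were −0.98 at 24 h and −0.73 at 7 d in limma, and −1.37 and −1.09 in edgeR and −1.39 and −1.12 in DESeq2, where it was called lower at both time-points. DESeq2 called 8.22% of all genes lower at 7 d. The lists for chloroplast ATP synthase and for photoprotection held 0 described genes.

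There were 23 described photosynthesis genes other than the small chain gene and the light-harvesting gene followed here. Of these, limma called 0 lower and 2 higher at 4 h, where 0.592% of all genes were called lower and 5.15% higher. At 24 h it called 2 lower and 2 higher, where 3.55% of all genes were called lower and 5.99% higher. At 7 d it called 11 lower and 4 higher, where 3.41% of all genes were called lower and 6.81% higher. The calls leave out changes short of 2-fold. At 4 h, 14 of the 23 had a log2 fold change below 0, with 4 lower and 5 higher at an unadjusted limma p under 0.05. At 24 h, 16 were below 0, with 14 lower and 5 higher at that unadjusted limma p. Both edgeR and DESeq2 called 0 lower at 4 h. At 7 d edgeR called 15 lower and 4 higher, beside 7.63% of all genes called lower. The median log2 fold change of the list was −0.06 at 4 h, −0.39 after 24 h and −0.94 after 7 d. All genes tested had a median of 0.15 at 7 d with library-size scaling and 0.02 with TMM scaling, and the share of higher calls among all calls at 7 d was 66.6% and 48.7%, respectively. With TMM scaling the median of the list was −1.11 at 7 d. All 23 genes had been called cold-regulated by the study on these libraries, so these counts describe selected genes.

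**Figure D4:**
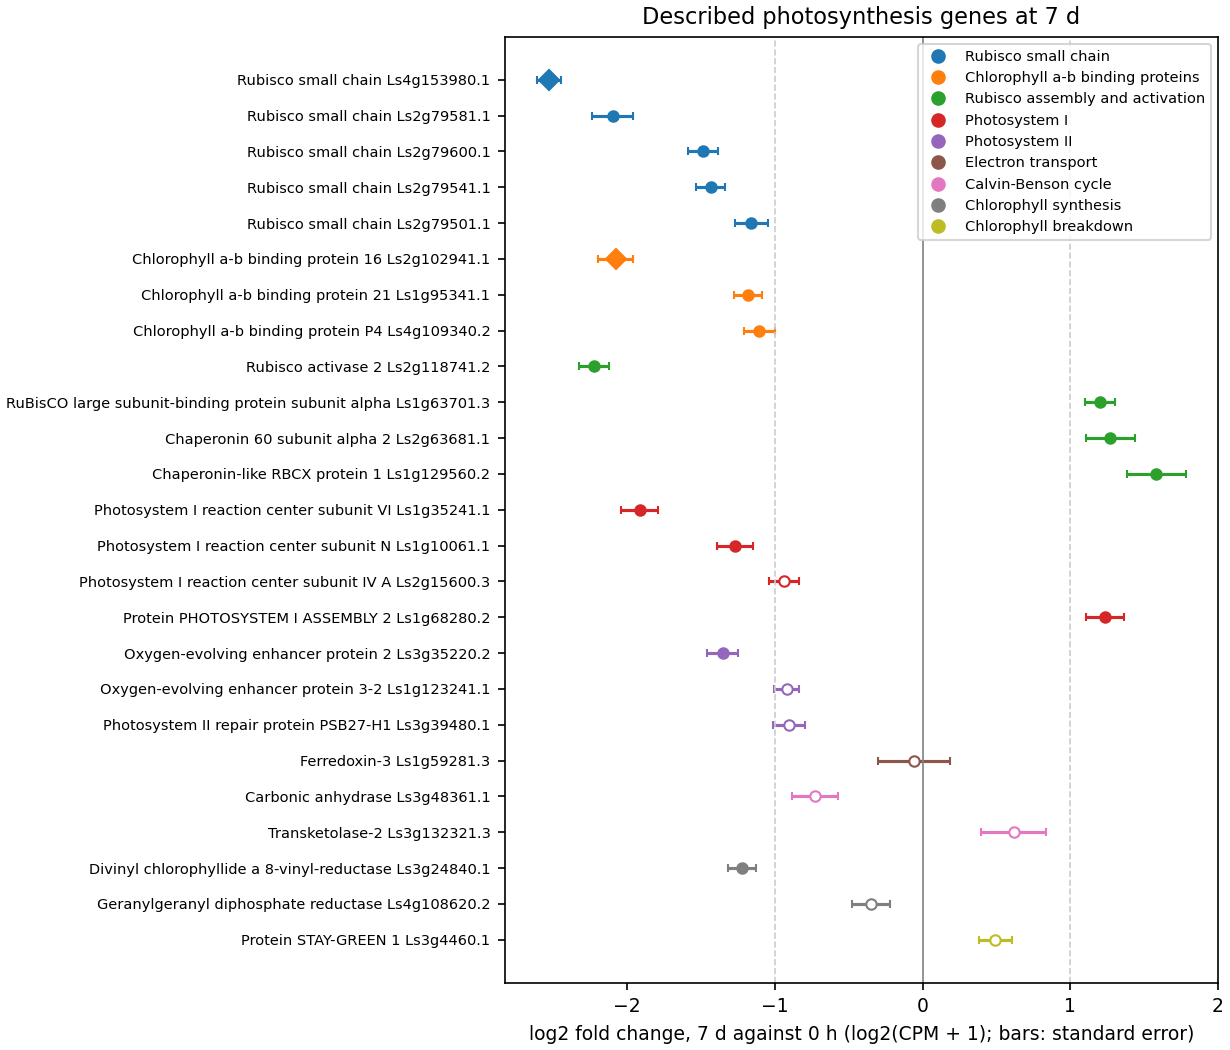
Log2 fold change at 7 d against 0 h, on the log2(CPM + 1) scale, of the described photosynthesis genes, coloured by list; bars are standard errors, filled circles were called, open circles were not, and diamonds are the genes Ls4g153980.1 and Ls2g102941.1, which were not tested. Small chain and chlorophyll a-b binding protein genes lie at −1.10 or below, whereas 3 of the 4 genes of Rubisco assembly and activation lie at 1.2 or above.

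Likeness of time course was measured as Pearson r of log2(CPM + 1) over the 12 libraries, among 1665 genes whose mean reached 100 CPM, and is a description of libraries that share their time-points. The 5 genes most like Ls4g153980.1 were Ls8g19860.1 (not described, r = 0.992), the small chain gene Ls2g79541.1 (0.991), Rubisco activase 2, Ls2g118741.2 (0.991), chlorophyll a-b binding protein 21, Ls1g95341.1 (0.988), and a carbonic anhydrase, Ls0g19321.2 (0.983). By Spearman's rho none (0) of these 5 was among the 5 most alike, with rho = 0.720 for Ls2g79541.1 and 0.790 for activase. Ls0g19321.2 was at 1478 CPM at 0 h, 1493 at 4 h, 1247 after 24 h and 510.1 after 7 d, or 84.4% of its 0 h level at 24 h and 34.5% at 7 d. The 5 genes most like Ls2g102941.1 were Ls5g6741.1 (r = 0.996), Ls4g28860.1, Ls5g169660.1, Ls9g96840.1 and Ls5g107040.1 (0.988 to 0.989), none of which was described, and 2 of which were among the 5 most alike by Spearman's rho. Ls5g6741.1 was at 8400 CPM at 0 h, 7398 at 4 h, 4947 after 24 h and 3102 after 7 d, lower at each time-point. An r of at least 0.95 was reached by 29 genes for the small chain gene and by 47 for the light-harvesting gene. With each other, the small chain gene and the light-harvesting gene had r = 0.912 and Spearman's rho = 0.944 over the 12 libraries.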

How the data were processed

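RNA-seq of 12 libraries, 3 at each of 4 time-points taken from the sample labels, was analysed. The authors mapped 150 bp paired-end reads to the lettuce genome (version 8) with STAR v2.5.2, used featureCounts to count reads at genes, and deposited the 23933 genes as CPM. The values are scaled by library size only, and whether counting used strand is not given in the sources used here. All values (100%) were whole multiples of 1 read within 0.01, so that reads could be recovered. The design named the edgeR quasi-likelihood test for counts. Because CPM were deposited instead, limma (version 3.58.1, R 4.3.3) was the test used, on log2(CPM + 1) in one fit of all libraries, keeping genes that reached 0.5 CPM in 2 or more libraries, with Benjamini-Hochberg adjustment within each contrast. edgeR (version 4.0.16) on recovered reads called 280, 1397 and 1701 genes lower at 4 h, 24 h and 7 d, against 132, 791 and 760 in limma. DESeq2 (version 1.42.0), TMM and RLE scaling, a pseudocount of 0.1 CPM, no filter, an adjusted p of at most 0.05, 2-time-point fits, a replicate block and leaving out each library were alternatives. The fitting steps were tested on simulated data.

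The genes and lists were chosen with earlier results of these data known. Lists were made by words in gene descriptions. Named are the 2 genes, all other described genes of both families, at most 3 genes of each other list with the highest mean CPM, and the 5 genes most like each gene. None (0) of the gene IDs matched the reference table used for names, so that positions, promoters and protein sequences were not analysed here.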

Additional observations from a re-analysis of the deposited data

How the results depend on the processing

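Both genes were lower than at 0 h under every alternative run, and their sizes moved with the scaling. For the small chain gene at 4 h, 24 h and 7 d, the log2 fold changes were −0.15, −0.39 and −2.70 with TMM, −0.16, −0.41 and −2.72 with RLE, −0.15, −0.40 and −2.70 in edgeR, −0.16, −0.41 and −2.72 in DESeq2, and −0.17, −0.49 and −2.77 without the 100 genes highest at 0 h. For the light-harvesting gene at 7 d they were −2.25, −2.28, −2.26, −2.29 and −2.32 in the same order, and −1.23 at 24 h without the 100 genes. Leaving out each library gave −0.12 to −0.09, −0.37 to −0.34 and −2.55 to −2.50 for the former and −0.43 to −0.35, −1.21 to −0.97 and −2.12 to −2.02 for the latter. The log2 ratio of the genes ran from −0.33 to −0.23 at 4 h and from −0.86 to −0.63 at 24 h.

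Genes called lower at 4 h, 24 h and 7 d numbered 213, 1191 and 1169 with a pseudocount of 0.1, 280, 1397 and 1701 in edgeR and 330, 1498 and 1833 in DESeq2. Leaving out libraries gave 122 to 206 (206 without 0 h replicate 3), 694 to 901 and 712 to 807. Of the described photosynthesis genes, 4 were lower at 24 h with a pseudocount of 0.1, and 1 to 3 with a library left out (1 without 24 h replicate 1). At 7 d, 11 were lower and 4 higher whichever library was left out. Of the 5 genes most alike, Spearman's rho shared 0 for the small chain gene and 2 for the light-harvesting gene.

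Uncalled log2 fold changes near 0 turned sign. At 4 h, Ls2g79541.1 (0.01) was at −0.035 with TMM, −0.046 with RLE, −0.044 in edgeR and −0.054 in DESeq2, and Ls2g118741.2 at −0.0093 with RLE, −0.011 in edgeR and −0.021 in DESeq2. With single libraries left out, Ls2g79541.1 ran from −0.019 to 0.066, Ls2g79501.1 from −0.048 to 0.070 and Ls2g63681.1 from −0.019 to 0.33 at 4 h, and Ls1g59281.3 from −0.21 to 0.12 at 7 d. The cause of none of these changes was tested.

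The labels tie no replicate number to a shared plant or batch, and for that reason libraries were not treated as paired. The correlations below do not settle whether same-numbered libraries share a batch. Deviations from the time-point means correlated with a median r of 0.04 between libraries of the same number (−0.22 to 0.19, over 0.1 in 6 of 18 pairs) and of −0.02 between those of different numbers (over 0.1 in 4 of 36), and all 6 pairs of replicate 2 were above 0. With the replicate number as a block, 87 of 87 comparisons of described genes kept their call and direction, and the 7 d values of the small chain and light-harvesting genes were −2.53 and −2.08. With 3 libraries per time-point, changes near 2-fold are the least certain, and transcripts with few reads, such as Ls4g108620.2, allow no statement.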

Other observations

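In Arabidopsis, light-harvesting genes follow the circadian clock, and clock and light regulators were among the described genes. Of 6 such genes, limma called 4 higher and 0 lower at 4 h, and 5 higher and 1 lower at 24 h. At 7 d it called 3 higher and 0 lower. Over all genes it called 5.15%, 5.99% and 6.81% higher and 0.592%, 3.55% and 3.41% lower at 4 h, 24 h and 7 d. At an unadjusted limma p under 0.05, 5 of the 6 were higher and 1 was lower at 4 h, and again at 7 d. Both edgeR and DESeq2 called 0 lower at 4 h and 1 at 7 d. Protein REVEILLE 1, Ls3g67100.1, a MYB-like transcription factor, was at 21.4, 17.1 and 17.5 CPM at 0 h and at 282, 283 and 289.9 CPM at 4 h. It then stood at 110.3 CPM at 24 h and 48.6 CPM at 7 d, and its log2 fold changes of 3.87, 2.49 and 1.33 were all called. Protein REVEILLE 8, Ls2g109801.1, of the same family, rose from 19.0 to 84.8 CPM at 4 h and to 52.7 CPM at 24 h (log2 fold changes 2.11 and 1.43, limma adjusted p = 1.44e-07 and 2.37e-06). At 7 d its log2 fold change was 0.96, short of the 2-fold threshold. Two-component response regulator-like PRR37, Ls2g115441.2, a pseudo-response regulator of the clock, fell from 124.9 to 53.0 CPM at 24 h (log2 fold change −1.22, limma adjusted p = 1.25e-06). It was at −0.85 at 7 d, again short of 2-fold. At 4 h, when REVEILLE 1 and REVEILLE 8 were called and PRR37 was not (log2 fold change −0.55), the small chain gene was at 93.2% of its warm level and the light-harvesting gene at 76.0%. The part of the time of day in these values was not tested.

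The gene Ls2g79481.1 is absent from the list of cold-regulated genes, so it has no description here and is in none of the sums above. Its ID number is close to those of the 4 small chain genes of linkage group 2. A close number does not show that it belongs to that family, and what it encodes is not known here. The gene was chosen after its values were seen. It was at 13849 ± 315 CPM at 0 h, 12995 ± 149 at 4 h, 14325 ± 480.4 after 24 h and 19518 ± 1955 after 7 d (SD, n = 3). By mean level it ranked second at 0 h and 4 h, behind Ls4g153980.1, and first at 24 h and 7 d.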
